A study of Mus musculus with 6 samples.

Results

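Acsl4, Lpcat3 and Ireb2, 3 mouse genes tied to ferroptosis and to the sensing of iron, were followed among 18572 genes measured on microarrays of NIT-1 cells. NIT-1 is a line of pancreatic beta cells from an insulinoma of a transgenic NOD mouse that carried viral large T antigen under an insulin promoter. The control group was grown for 24 h and then kept for 24 h in culture medium without cadmium (0 µmol/L), and the cadmium group was kept for the same time with 4 µmol/L CdSO4. Both groups were grown in the same medium with fetal bovine serum, penicillin and streptomycin, and each had 3 arrays of total RNA labelled with biotin. The labels call them biological replicates without naming passages or days, so the spread is that between these cultures. The 3 genes were chosen by their lower signal with cadmium in an earlier analysis of the same arrays, so their differences are given as a description with no test. Each had 1 transcript cluster that named it alone.

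Ferroptosis is a form of cell death in which polyunsaturated phospholipids are peroxidised in the presence of iron. Acsl4 encodes the acyl-CoA synthetase that prefers arachidonic and adrenic acid, and Lpcat3 encodes the acyltransferase that places such acyl chains into lysophospholipids, so the products of both genes supply the lipids that are oxidised. Ireb2 encodes iron regulatory protein 2, which binds iron-responsive elements in transcripts for iron uptake and storage and is degraded through the ubiquitin ligase subunit Fbxl5 when iron is plentiful. Beta cells are known for low levels of several peroxide-removing enzymes.

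All 3 genes were lower with cadmium, and for each of them every cadmium array lay below every control array. Values are log2 signals as deposited and differences are cadmium minus control. Each SE of a difference comes from the limma fit, which borrows variance from all genes. It can thus be smaller or larger than the replicates of that gene alone would give, and the SDs show their own spread. Among all genes, 13.1% had every cadmium array below every control array and 22.8% had every one above. At a limma adjusted p under 0.05, the threshold used throughout, 12.3% of all genes changed and 5.8% were lower. Since this contrast chose the 3 genes, nothing is read from their place among these shares or among the differences of all genes given below. Fewer cells that express a gene and less RNA per cell cannot be told apart in such bulk samples.

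Acsl4 was at 5.97, 6.04 and 6.02 on control replicates 1 to 3 and at 5.70, 5.64 and 5.63 on cadmium replicates 1 to 3. The arrays of each group lay within 0.07 of each other, and a gap of 0.28 separated the lowest control from the highest cadmium array. The means were 6.01 ± 0.03 and 5.66 ± 0.04 (SD, n = 3 per group), a difference of -0.35 ± 0.05 (SE). It was the smallest difference of the 3 genes and the one with the tightest replicates. Of all genes, 4.09% had a difference this low or lower, a place that describes a gene chosen by its difference.

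Lpcat3 was at 7.01, 7.06 and 6.54 on the control arrays and at 6.18, 6.37 and 6.34 on the cadmium arrays. Control replicate 3 stood below the other controls by more than the whole range of the cadmium arrays, and still above each of them by at least 0.17. The means were 6.87 ± 0.29 and 6.30 ± 0.10 (SD, n = 3 per group), a difference of -0.57 ± 0.14 (SE) or a 1.49-fold lower signal. A difference this low or lower was found for 1.22% of all genes, which again only describes a gene chosen by its difference.

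Ireb2 was at 5.79, 5.83 and 5.69 on the control arrays and at 5.44, 4.94 and 4.99 on the cadmium arrays. Here the spread lay in the cadmium group, where replicate 1 was nearest to the controls. The means were 5.77 ± 0.07 and 5.12 ± 0.28 (SD, n = 3 per group), a difference of -0.65 ± 0.13 (SE). Of all genes, 0.797% had a difference this low or lower, with the same limit from the choice of the gene. Ireb2 and Lpcat3 had no fixed order, since that of Lpcat3 was the larger when control replicate 3 or either of cadmium replicates 2 and 3 was left out.

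**Figure D1:**
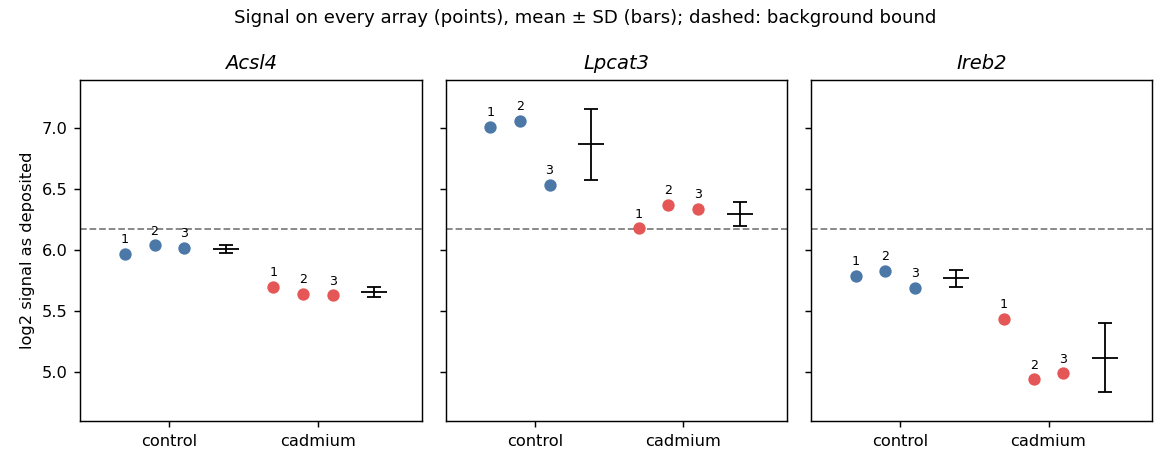
Log2 signal (vertical axis) of Acsl4, Lpcat3 and Ireb2 on each of 3 control and 3 cadmium arrays (points, numbered by replicate), with the mean ± SD beside them and the background bound of 6.18 as a dashed line. Control replicate 3 is low for Lpcat3 (6.54), cadmium replicate 1 is high for Ireb2 (5.44), and the groups do not overlap for any of the 3 genes.

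The signals lay near or below the background bound used here. A background bound was set at 6.18, the level that 95% of the 5222 negative control probes of an array lay below, averaged over the 6 arrays. Lpcat3 had both group means above that bound, and 5 of its 6 arrays lay above the bound of the same array. Acsl4 and Ireb2 lay below it on every array, so no fold is given for them, and their differences may be compressed. The control mean of Acsl4 exceeded 94.3% of the negative control probes and its cadmium mean 92.6%. For Ireb2 these shares were 93.0% and 89.1%. The bound is approximate, since a gene's value may combine more probes than a control's does. It is also high beside the typical signal. The median negative control probe lay at 2.50 to 2.55 over the arrays, and the median gene had a mean of 4.16.

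**Figure D2:**
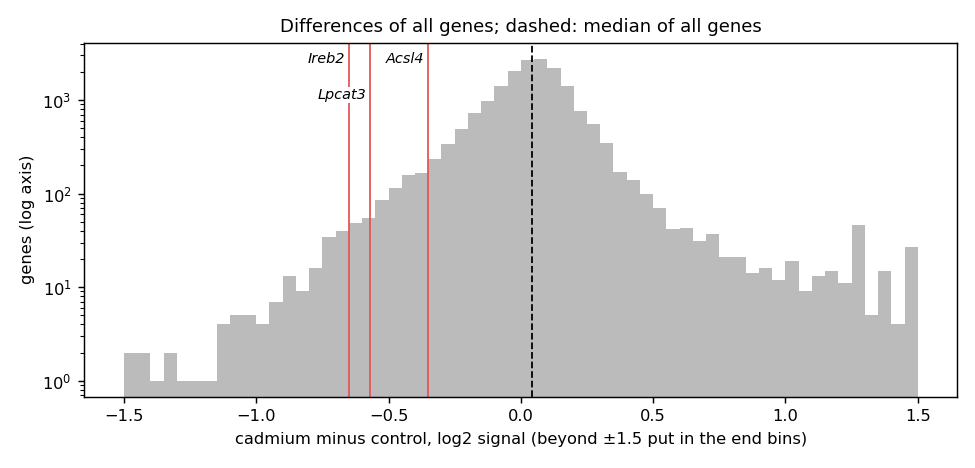
Number of genes (vertical log axis) by difference between cadmium and control in log2 signal (horizontal axis, 18572 genes, values beyond the axis placed in the end bins). Red lines mark Ireb2 at -0.65, Lpcat3 at -0.57 and Acsl4 at -0.35, and the dashed line marks the median of all genes at 0.044.

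On the second principal component of all genes, with 15.57% of the variance, 2 arrays stood away from the remaining 4. They were control replicate 3 and cadmium replicate 1. The difference between these 2 arrays was -0.32 for Acsl4, -0.35 for Lpcat3 and -0.25 for Ireb2. Over the other 4 arrays it was -0.37, -0.68 and -0.85. Acsl4 thus differed by nearly the same amount in both subsets, whereas Ireb2 and Lpcat3 differed less between the arrays that stood apart. Leaving out 1 array in turn gave differences of -0.38 to -0.34 for Acsl4, -0.74 to -0.48 for Lpcat3 and -0.81 to -0.56 for Ireb2.

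The median of all transcript clusters was higher on each cadmium array (3.39 to 3.40) than on any control array (3.34 to 3.35). With each array centred on its median the differences were -0.40 for Acsl4, -0.62 for Lpcat3 and -0.70 for Ireb2. After quantile normalization they were -0.35, -0.60 and -0.66.

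**Figure D3:**
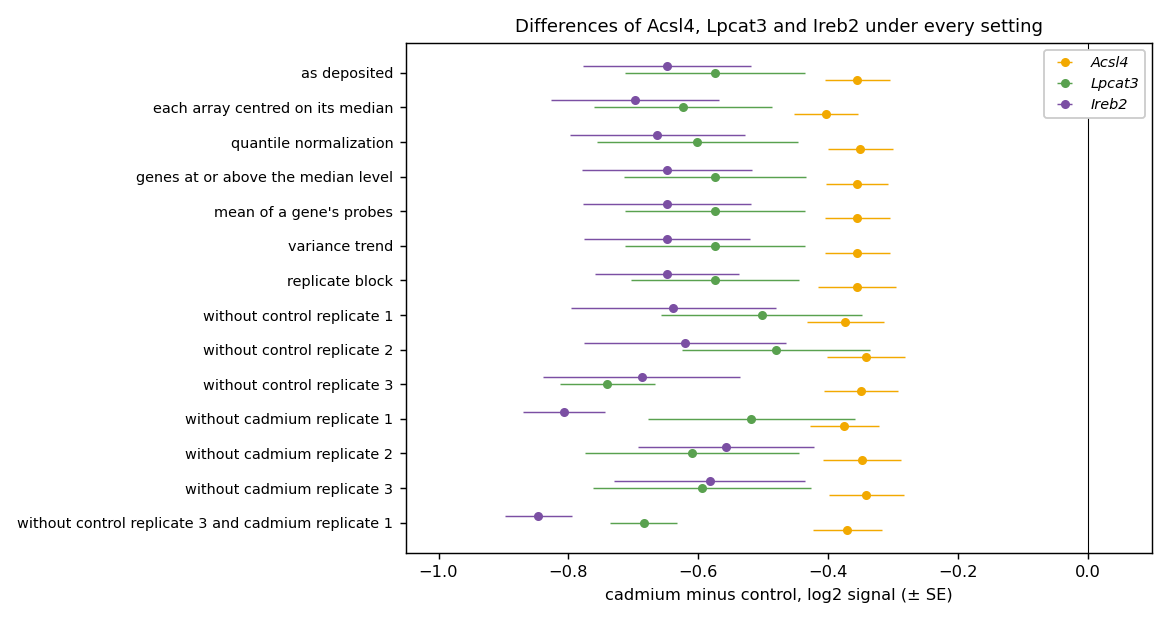
Difference between cadmium and control in log2 signal (horizontal axis, ± SE) of Acsl4, Lpcat3 and Ireb2 under every setting tried (vertical axis). Every value is below 0, from -0.85 for Ireb2 without control replicate 3 and cadmium replicate 1 to -0.34 for Acsl4 without control replicate 2. Leaving out arrays could not change a sign, since the groups did not overlap.

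The promoters of the 3 genes were compared because the genes were lower together. The windows hold the 250 bases before the RefSeq start site on the gene's strand in build GRCm38.p6, at chrX:142390536-142390785 on the minus strand for Acsl4, chr6:124662854-124663103 on the plus strand for Lpcat3 and chr9:54863505-54863754 on the plus strand for Ireb2. RefSeq places all 250 bases of the Acsl4 and Ireb2 windows, and 10 bases of that of Lpcat3, within the gene's own annotated range, so other transcripts of these genes may start further upstream. Capitals mark GC boxes, CCAAT boxes and cores of the metal response element, on either strand.
Acsl4: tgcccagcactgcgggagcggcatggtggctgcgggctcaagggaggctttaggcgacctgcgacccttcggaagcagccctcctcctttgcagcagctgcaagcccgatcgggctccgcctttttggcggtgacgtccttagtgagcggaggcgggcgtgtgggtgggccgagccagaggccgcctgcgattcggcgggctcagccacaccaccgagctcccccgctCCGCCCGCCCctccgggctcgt
Lpcat3: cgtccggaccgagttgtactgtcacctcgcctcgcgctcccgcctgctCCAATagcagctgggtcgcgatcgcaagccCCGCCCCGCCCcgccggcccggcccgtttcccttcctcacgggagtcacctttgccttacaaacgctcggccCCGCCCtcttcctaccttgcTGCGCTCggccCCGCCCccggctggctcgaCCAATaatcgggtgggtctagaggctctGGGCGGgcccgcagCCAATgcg
Ireb2: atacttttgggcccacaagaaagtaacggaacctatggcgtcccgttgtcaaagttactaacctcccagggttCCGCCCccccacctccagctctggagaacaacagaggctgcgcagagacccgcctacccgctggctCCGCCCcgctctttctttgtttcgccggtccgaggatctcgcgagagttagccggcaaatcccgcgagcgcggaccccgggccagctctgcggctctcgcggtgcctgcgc

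All 3 windows were rich in G and C, at 70.8% for Acsl4, 70.0% for Lpcat3 and 63.6% for Ireb2. The median was 52.4% over 32851 RefSeq promoter windows of the same length. Of those windows 92.2%, 91.2% and 80.8% were at or below Acsl4, Lpcat3 and Ireb2, so such shares are not rare. The 3 windows held 25, 29 and 24 CpG dinucleotides, and the median window held 6. A link of these contents to the lower signals was not tested. The GC box, GGGCGG on either strand, occurred 2 times in Acsl4, 5 times in Lpcat3 and 2 times in Ireb2, some of the matches overlapping, and 32.7% of all windows held it. The CCAAT box, CCAAT on either strand, occurred 3 times in Lpcat3 and in neither other window, against 33.8% of all windows.

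The core of the metal response element, the site of the zinc-sensing factor Mtf1, was searched as TGCACNC or TGCGCNC on both strands. It occurred 1 time, in Lpcat3, as TGCGCTC from 80 to 74 bases before the start, and 21.4% of all windows held a match. TATAAA, the antioxidant response element core TGACNNNGC and the heat shock element core GAANNTTC or TTCNNGAA were found in 0 of the 3 windows on either strand. Of all windows 12.4%, 10.2% and 12.8% held these. A match is a description of the letters only.

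Beyond the 3 genes, 9 lists by role held 105 other genes of iron, phospholipid and ferroptosis biology, and 47 of these had a transcript cluster that named them alone. With cadmium 8 rose and 5 fell, or 17.0% and 10.6%, against 6.45% and 5.8% of all genes. The median difference was 0.055, and 0.044 over all genes. With each array centred on its median 7 rose and 7 fell, where 4.42% of all genes rose and 8.09% fell. After quantile normalization 7 rose and 6 fell, against 4.9% and 7.49% of all genes. Of the 47, 36 had both group means below the background bound. When only genes at or above the median level were kept, larger shares of the genes rose and fell than among all genes. The lists were chosen with earlier results of these data known, so no excess over all genes is read from these shares.

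Among lysophospholipid acyltransferases, which reattach acyl chains to phospholipids, 1 of the 4 measured besides Lpcat3 fell and 0 rose. Lpcat4 was at 6.67, 6.68 and 6.47 in control and 6.10, 6.31 and 6.17 in cadmium arrays. As in Lpcat3, control replicate 3 and cadmium replicate 1 were the lowest of their groups, and the groups did not overlap. The difference was -0.41 ± 0.08 (SE), a 1.33-fold lower signal (limma adjusted p = 0.0196). The cadmium mean of 6.19 lay barely above the background bound of 6.18, and cadmium replicate 1 lay below the bound of its own array (6.25). Leaving out control replicate 1 or 2 or cadmium replicate 3 ended the call (adjusted p of up to 0.0775). Lpgat1, which acylates lysophosphatidylglycerol, went from 6.33 ± 0.12 to 6.10 ± 0.06 (SD, n = 3 each) and did not pass (limma adjusted p = 0.0891). It passed with each array centred (0.0468), without control replicate 3 (0.0294) and without both arrays that stood apart (0.0368). Under every other setting it did not pass, among them quantile normalization (0.128) and the replicate number as a block (0.125). Mboat7, which acylates lysophosphatidylinositol, was at 4.95 ± 0.19 and 4.84 ± 0.17, and Lpcat2 at 3.16 ± 0.07 and 3.15 ± 0.04, and neither passed. Of the fatty acyl-CoA synthetases only Acsl4 was measured, and Acsl1, Acsl3, Acsl5 and Acsl6 were not analysed here. Elovl5, an elongase of polyunsaturated fatty acids, was at 7.04 ± 0.20 and 7.10 ± 0.24 (limma adjusted p = 0.833).

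Beside Ireb2, Fbxl5, the subunit through which iron regulatory protein 2 is degraded, also fell. It was at 4.42, 4.57 and 4.50 in control and 4.03, 3.92 and 3.98 in cadmium arrays, all below the background bound, with no overlap. The difference was -0.52 ± 0.06 (SE, limma adjusted p = 0.00266). Aco1, which encodes iron regulatory protein 1, a protein that acts as cytosolic aconitase when it carries an iron-sulphur cluster, was at 5.48, 5.44 and 5.54 in control and 5.29, 5.33 and 5.30 in cadmium arrays. Its groups did not overlap, but the difference of -0.18 ± 0.05 (SE) did not pass (limma adjusted p = 0.0616). It passed with each array centred (0.0296), after quantile normalization (0.0441) and when dim genes were left out (0.0369). It did not pass without any 1 array (0.105 to 0.151), without both that stood apart (0.128) or with the replicate number as a block (0.142).

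Of transcripts known to carry iron-responsive elements, Ftl1, the ferritin light chain that stores iron, rose from 6.22, 6.33 and 5.90 to 6.68, 6.91 and 6.88. Every cadmium array exceeded every control array, and the rise was at least 1.51-fold with the control mean below the bound (limma adjusted p = 0.0128). Ferritin light chain has near-identical copies in the mouse genome, so this signal may not belong to Ftl1 alone. Leaving out cadmium replicate 2 or 3 ended the call (adjusted p of up to 0.0564). Slc40a1, the iron exporter ferroportin, was at 3.35 ± 0.04 and 3.47 ± 0.10, and Alas2, the erythroid enzyme of haem synthesis, at 3.93 ± 0.05 and 3.95 ± 0.01, and neither passed (limma adjusted p = 0.264 and 0.844). The transferrin receptor Tfrc, the importer Slc11a2 and the ferritin heavy chain Fth1 were not analysed here. The part of Ireb2 in the signals of these transcripts was not tested.

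In the list of iron uptake, storage, export and haem, 3 of 11 genes rose and 1 fell. Hmox1, which releases iron from haem, rose from 5.66, 5.42 and 5.15 to 7.27, 7.71 and 7.74, at least 2.62-fold (limma adjusted p = 0.00146), the largest difference among the 47 genes. Flvcr1, a haem exporter, rose from 4.56 ± 0.03 to 5.02 ± 0.14 (limma adjusted p = 0.0107). Tfr2, a second transferrin receptor, rose from 4.38 ± 0.01 to 4.57 ± 0.03 (limma adjusted p = 0.0371). Its call was lost with each array centred (0.0878), after quantile normalization (0.0982) and with the replicate number as a block (0.11). It was also lost without any 1 of the 6 arrays (up to 0.122) or both that stood apart (0.0626). Cp, the ferroxidase ceruloplasmin, fell from 4.41 ± 0.06 to 4.16 ± 0.04 (limma adjusted p = 0.0285). That call was lost without any 1 array except control replicate 1 (up to 0.105) or without both that stood apart (0.0846). With the replicate number as a block it was lost too (0.0704). Flvcr1, Tfr2 and Cp lay below the background bound in both groups.

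Among 5 genes of mitochondrial iron and iron-sulphur clusters 1 fell and 0 rose. Nfs1, the cysteine desulphurase that supplies sulphur for the clusters, went from 5.41 ± 0.03 to 5.14 ± 0.06 (limma adjusted p = 0.0195), below the bound in both groups. That call was lost without control replicate 1, control replicate 2 or cadmium replicate 3, at up to 0.0787, and without both arrays that stood apart (0.053). With the replicate number as a block it was lost too (0.0526). Iscu, the scaffold on which clusters form, was at 5.71 ± 0.05 and 5.88 ± 0.04 (limma adjusted p = 0.0918). Bola3, a late factor in cluster assembly, was at 5.00 ± 0.02 and 5.07 ± 0.06, and Cisd2, a membrane protein with a cluster of its own, at 3.61 ± 0.06 and 3.68 ± 0.08, and neither passed.

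In the list of ferroptosis defence 3 of 11 genes rose and 1 fell. Slc7a11, the cystine importer, was at 3.71, 3.80 and 3.99 in control and 4.57, 4.81 and 4.65 in cadmium arrays, with no overlap (limma adjusted p = 0.00235). Gclc, the catalytic subunit of the first step of glutathione synthesis, rose 1.99-fold from 6.83, 6.87 and 6.87 to 7.61, 7.97 and 7.95 (limma adjusted p = 0.00175). Nqo1, a quinone reductase, rose from 2.80 ± 0.12 to 3.24 ± 0.06 (limma adjusted p = 0.0106), a call lost without control replicate 3 and cadmium replicate 1 together (0.0537). Sepsecs, which completes the transfer RNA that carries selenocysteine into proteins such as Gpx4, fell from 5.83 ± 0.11 to 5.35 ± 0.09 (limma adjusted p = 0.00826). All but Gclc lay below the bound in both groups. Gpx4 and Aifm2, which detoxify or prevent lipid peroxides, were not analysed here.

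Of 10 genes listed as promoting lipid peroxidation or marking ferroptosis, 1 rose and 0 fell. Nox4, an oxidase that makes hydrogen peroxide, went from 2.86 ± 0.03 to 3.21 ± 0.11, far below the bound (limma adjusted p = 0.0195). That call was lost without control replicate 1 or 2 or cadmium replicate 2 or 3, at up to 0.0756. With the replicate number as a block it was lost too (0.0538). Chac1, which degrades glutathione, was at 4.98, 5.68 and 6.00 in control and 5.59, 6.44 and 6.24 in cadmium arrays. Its groups overlapped and it did not pass (limma adjusted p = 0.283). Cybb, the phagocyte oxidase subunit, was at 2.72 ± 0.04 and 2.83 ± 0.06, and Alox5, a lipoxygenase, at 3.96 ± 0.04 and 4.02 ± 0.03, and neither passed (limma adjusted p = 0.211 and 0.464).

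**Figure D4:**
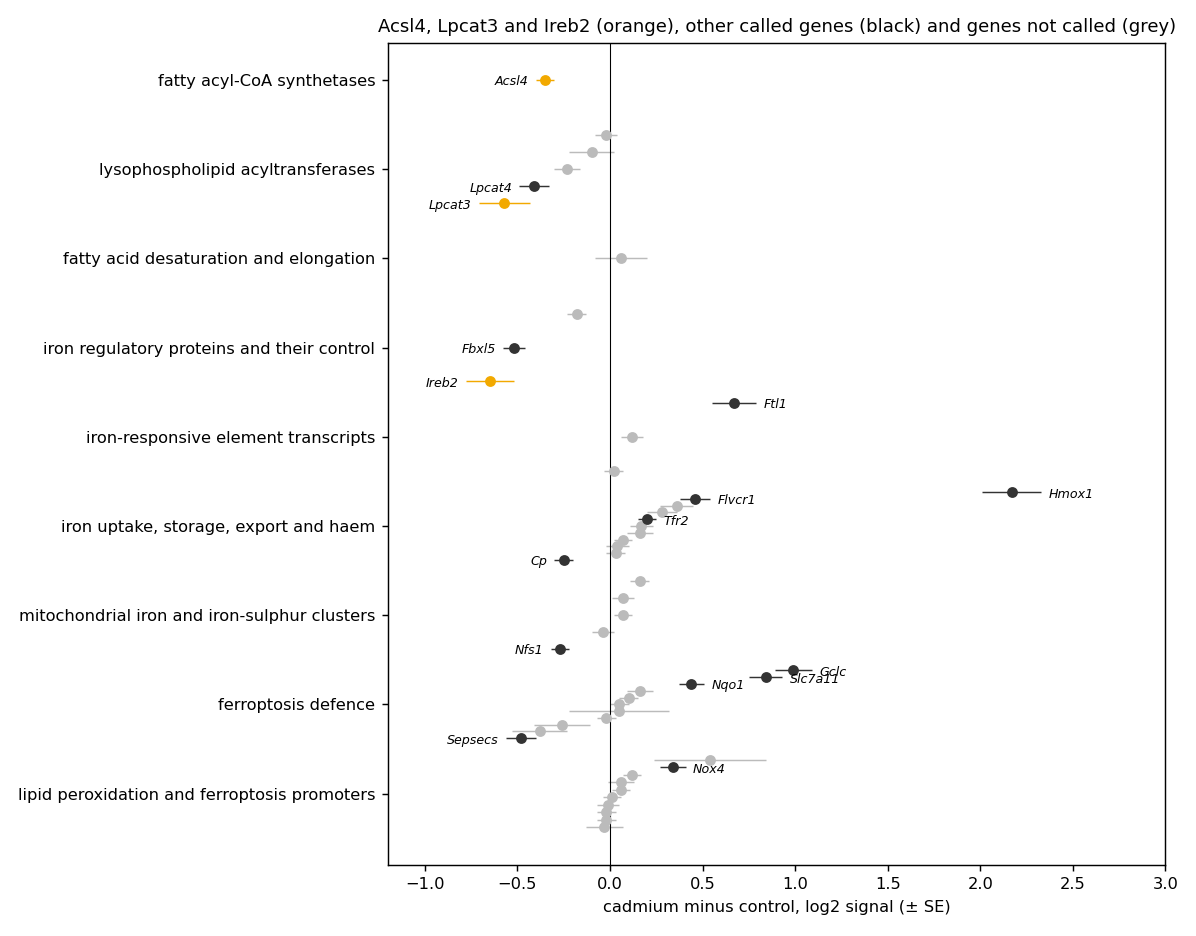
Difference between cadmium and control in log2 signal (horizontal axis, ± SE) for the measured genes of 9 lists by role (vertical axis). Acsl4, Lpcat3 and Ireb2 are orange, the 13 other genes past the threshold are black and named, and the 34 genes not past it are grey. Lpcat4 at -0.41 and Fbxl5 at -0.52 lie beside Lpcat3 and Ireb2, and Hmox1 at 2.17 is farthest to the right.

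The nearest measured protein-coding gene on each side of the 3 genes was taken from the RefSeq order, a choice made after the values of the 3 genes were seen. Tmem164, next to Acsl4, encodes an acyltransferase that makes ether phospholipids with arachidonic acid. It fell from 5.34, 5.44 and 5.32 to 5.00, 5.06 and 4.98, a difference of -0.35 ± 0.06 (SE, limma adjusted p = 0.00882), below the background bound in both groups. Kcne1l, on the other side of Acsl4, was at 5.32 ± 0.02 and 5.31 ± 0.02 (limma adjusted p = 0.984).

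Near Lpcat3, C1rb, a complement component, fell from 5.57 ± 0.09 to 5.13 ± 0.17, below the background bound in both groups. The difference was -0.44 ± 0.09 (SE, limma adjusted p = 0.0243). Emg1, a ribosome biogenesis factor whose annotated range overlaps that of Lpcat3, was at 5.14 ± 0.07 and 5.35 ± 0.08. It was also below the bound and did not pass (limma adjusted p = 0.081). Around Ireb2, Crabp1, a retinoic acid binding protein, was at 7.12 ± 0.05 and 7.07 ± 0.16 and Hykk, hydroxylysine kinase, at 2.49 ± 0.02 and 2.42 ± 0.08, and neither passed (limma adjusted p = 0.733 and 0.458).

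The genes most like each of the 3 over the 6 arrays were taken by Pearson's r among the 9285 brighter of the other genes, as a description. All 6 arrays share the difference between the groups, and 536, 208 and 241 genes had an r over 0.95 with Acsl4, Lpcat3 and Ireb2. For Acsl4 the nearest were Ubr3, Arfgef1, Mospd2, Xrn1 and Chd9, at r of 0.9978 to 0.9997. For Lpcat3 they were Acacb, Ndc1, Igsf3, Cyp51 and Zdhhc5, at 0.9959 to 0.9987, among which Acacb encodes an acetyl-CoA carboxylase and Cyp51 an enzyme of cholesterol synthesis. For Ireb2 they were Gm25640, Mir3470a, Atr, Vps13c and Trp53bp1, at 0.9945 to 0.9983, among which Atr and Trp53bp1 act in the response to DNA damage. That these 15 genes were also lower with cadmium, with differences from -1.02 to -0.22, follows from the way they were chosen.

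The labels were set against genes with known responses and against cell type markers. Mt2, a metallothionein known to be induced by cadmium, rose 4.45-fold from 7.94 ± 0.28 to 10.09 ± 0.11 (limma adjusted p = 0.00112), and Slc30a1, a zinc exporter with a known response to metals, rose from 5.02 ± 0.04 to 5.92 ± 0.12 (limma adjusted p = 0.00146). Of 20 beta cell markers 10 were measured, all below the background bound in both groups, with Ins2 at 5.27 ± 0.10 and 5.29 ± 0.04. The summed log2 signal of the 10 was 39.7 to 41.1 in control and 41.4 on each cadmium array, and 1 of them rose. Of 6 measured markers of exocrine pancreas 2 rose, with sums of 23.1 to 23.5 and 24.0 to 24.1, all below the bound. Of 3 stromal and immune markers 1 fell, the collagen gene Col3a1, from 9.07 ± 0.13 to 8.06 ± 0.17, and the other two, Vim and Ptprc, did not pass, at differences of 0.16 and 0.06. The lower sum of this list, 14.4 to 14.6 against 15.2 to 15.5 in control, thus rested on Col3a1. The 2 measured markers of other islet cells did not pass, with sums of 7.1 to 7.2 and 7.0 to 7.1. All these sums and calls are as deposited, and the median of all transcript clusters was itself higher on each cadmium array. The part of that shift in the sums was not tested. The part of these markers in the differences of Acsl4, Lpcat3 and Ireb2 was not tested either.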

How the data were processed

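The table deposited by the authors gives 1 log2 signal for each transcript cluster on each array, made by a background correction, normalization and software not given in the sources used here. That the scale is log2 was read from the range, 0.45 to 13.1, and folds hold only if the base is 2. Of 39746 clusters, 18801 had 1 gene symbol in the platform annotation, 1344 with several were left unnamed and 19601 had none. Current symbols came from RefSeq (GRCm38.p6), matched on gene identifier and otherwise on symbol or synonym. The brightest cluster stood for each gene, which left 18572 genes, 159 with over 1 cluster. The number of columns that no sample could be given was 0.

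The test was limma's (version 3.58.1 under R 4.3.3), two-sided, over all 6 arrays with only the group in the model, with Benjamini-Hochberg adjustment over 18572 genes. The steps were also tested on simulated data. The 3 genes and the lists were chosen with earlier results of these data known. Named genes are the list genes past the threshold of 0.05, the 4 with the lowest adjusted p in each list, and genes fixed beforehand by role. A fold with 1 group mean below the bound raises the dimmer arrays to their own bound. Promoter sequences came from RefSeq, and figures were drawn with matplotlib 3.10.9. Alternatives covered array scaling, a filter on level, the probe, the variance model, the replicate number as a block and arrays left out. The number of arrays limits the precision.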

Additional observations from a re-analysis of the deposited data

How the results depend on the processing

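The 3 differences stayed below 0 under all 13 alternatives, of which 1, without control replicate 3 and cadmium replicate 1, was chosen after seeing the data. Leaving out arrays could not change a sign, since the groups did not overlap. The filter on level, the probe, the variance model and the block left the 3 differences as they were. Only centring and quantile normalization could have changed a sign. That of Acsl4 moved by more than its replicate SD with each array centred, to -0.40. Of all genes 2276 passed, and 1134 to 2352 when 1 array was left out (1173 and 1141 without control replicates 1 and 2, 1134 and 1165 without cadmium replicates 2 and 3) and 2894 without both arrays that stood apart. Of genes past the threshold 52.6% were higher as deposited, 35.3% with each array centred and 39.5% after quantile normalization. Leaving out 1 array gave 5 to 9 risen list genes (5 without cadmium replicate 2 or 3) and 2 to 5 fallen ones (3 without control replicate 1, 2 without control replicate 2 or cadmium replicate 3). The calls of 7 of the 13 list genes held without any 1 array. The labels do not say whether the replicate numbers pair the arrays, and the main model has no pairing. Same-numbered arrays had deviations correlated at -0.1084, 0.053 and -0.1109, and control replicate 3 went best with cadmium replicate 1 (0.1644). With 3 arrays per group and 2 arrays that stood apart, such values cannot decide whether the arrays were paired. With the replicate number as a block 1372 genes passed, and 6 list genes rose and 3 fell. Of the 28 other genes named by the rule, those that changed sign were 3 not past the threshold. With 1 array left out Lpcat2 ranged from -0.047 to 0.017, Elovl5 from -0.06 to 0.193 and Alas2 from -0.009 to 0.042. Alas2 was at -0.03 with arrays centred and -0.041 after quantile normalization. Signals near or below the background bound limit most of these values.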
